A study of Zea mays with 4 samples.

Results

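EREB108 (Zm00001d031499) and EREB150 (Zm00001d031501) are 2 of the 45953 features counted in single cells of developing maize endosperm. Both are annotated as AP2-EREBP transcription factors, and their identifiers are separated by 1 other gene model. They were chosen by identifier for the way they were distributed over cells in these same libraries, so their levels are given as a description, with no test. The cells were protoplasts of wild-type endosperm of the inbred line B73, with no treatment or mutation in any library, and each library pooled many kernels. There were 3 libraries of endosperm at 7 days after pollination (DAP) and 1 library at 6 DAP. The libraries at 7 DAP are described as biological replicates, but the sources used here do not say whether they came from separate ears or plants, and p-values measure the spread between these libraries.

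AP2-EREBP proteins are a large plant family with a DNA-binding domain first described in APETALA2 and in factors that bind promoters of ethylene-responsive genes. The family name does not mean that a member responds to ethylene. The basal endosperm transfer layer (BETL) is the layer of cells with wall ingrowths at the base of the kernel, which takes up sugars and amino acids from the mother plant and secretes small cysteine-rich proteins. The aleurone (AL) is the outer epidermal layer of the endosperm. BETL9 and AL9 are genes named for these layers.

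Filters on genes and unique molecular identifiers (UMIs, which count captured transcript molecules) kept 4815, 4871 and 4385 cells at 7 DAP and 3141 cells at 6 DAP. Median depth was 3979, 5599 and 5659 UMIs per cell in the libraries at 7 DAP and 1814 UMIs per cell at 6 DAP. Library pairs shared 3 to 7 kept barcodes. Levels are counts per 1e6 UMIs of the cells named (CPM). Their 95% intervals are exact Poisson intervals and cover counting error only.

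Cells were divided by 2 genes. BETL9-high cells held at least 10 BETL9 UMIs per 10000 and at least 2 BETL9 UMIs while being low for AL9, and AL9-high cells were above a threshold set for AL9 in each library and were not BETL9-high. The 8 BETL markers summed to 23941 to 25052 CPM in BETL9-high cells and 865 to 1011 CPM in AL9-high cells at 7 DAP, and to 20703 CPM and 452 CPM in these groups at 6 DAP. AL markers summed to 1457 to 1753 CPM in BETL9-high cells and 65190 to 69437 CPM in AL9-high cells at 7 DAP. AL9, which helps set the groups, made up nearly all of these sums. Alone it stood at 1428 to 1714 CPM and 64396 to 68643 CPM in these groups. The BETL sums include BETL9, at 3346 to 3577 CPM in BETL9-high cells at 7 DAP. The sums thus partly restate the rule. Of markers outside the rule, SBT1 (AL) stood at 23.4 to 33.3 CPM in BETL9-high cells and 553 to 592 CPM in AL9-high cells at 7 DAP. BETL3 stood at 8328 to 8992 and 319 to 408 CPM in these groups. One AL marker, Zm00001d024210, had 0 UMIs in every group. The BETL9 rule was strict, so a wider set was also used: BETL-sum-high cells were those in which BETL10, BETL3 and BAP2 together exceeded a threshold of 7.18 to 8.33 UMIs per 10000, whatever their BETL9 or AL9 level. This set is not AL9-low. At 7 DAP 537, 395 and 278 of its cells, and at 6 DAP 193, were above the AL9 threshold, and its AL markers summed to 19841, 17832 and 14993 CPM and its BETL markers to 13771, 13752 and 14971 CPM at 7 DAP, against 2014 and 12316 CPM at 6 DAP. It is therefore called by its rule and not by a cell type. BETL-sum-high cells numbered 1016, 903 and 738 cells at 7 DAP and 694 cells at 6 DAP, against 203, 211 and 218 BETL9-high cells at 7 DAP and 190 at 6 DAP.

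The nucleotide sequences shown are a primer pair for EREB108, listed in the study's material for identifying mutants under the identifier given above. They are shown to identify the gene model, in lower case, 5′ to 3′.
EREB108-forward: tcgatgtcaaaagcgctgag
EREB108-reverse: agctgtatctctcgtagcca

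EREB108 transcripts were found in a minority of cells and EREB150 transcripts in still fewer. EREB108 gave 437, 667 and 688 UMIs in the libraries at 7 DAP and 137 UMIs at 6 DAP. These lay in 276, 350 and 366 cells at 7 DAP, or 5.73%, 7.19% and 8.35% of kept cells, and in 107 cells at 6 DAP, or 3.41%. EREB150 gave 42, 53 and 71 UMIs at 7 DAP and 20 UMIs at 6 DAP, in 35, 41 and 58 cells and in 16 cells. Most positive cells held a single UMI: 53.8% to 66.7% of EREB108 cells at 7 DAP and 87.9% at 6 DAP. No cell held more than 3 EREB150 UMIs. The most EREB108 UMIs in a cell were 7, 9 and 9 at 7 DAP and 16 at 6 DAP.

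Both genes stood at higher levels in BETL9-high than in AL9-high cells, although the few BETL9-high cells did not hold most EREB108 UMIs. EREB108 stood at 62.5, 79.1 and 69.4 CPM in BETL9-high cells at 7 DAP, against 12.2, 11.6 and 11.9 CPM in AL9-high cells of the same libraries. At 6 DAP it stood at 65.2 CPM (44.3 to 92.5) in BETL9-high cells and 7.31 CPM (4.94 to 10.4) in AL9-high cells. The 2 groups did not overlap in any library. In a test over 17761 genes described further on, 24.4% of genes were called higher in BETL9-high cells, and nothing is read from the members' place among them, since they were chosen on this contrast. Over the 3 libraries at 7 DAP the means were 70.4 ± 8.35 CPM in BETL9-high cells and 11.9 ± 0.305 CPM in AL9-high cells (SD, n = 3), a log2 ratio of 2.56.

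EREB150 had the same order of groups with few UMIs in AL9-high cells. It stood at 10.7, 10.9 and 14.1 CPM in BETL9-high cells at 7 DAP, from 17, 24 and 35 UMIs, against 0.548, 0.258 and 0.466 CPM in AL9-high cells, from 9, 6 and 10 UMIs. At 6 DAP it stood at 25.2 CPM (13.0 to 44.1) in BETL9-high cells, from 12 UMIs, and 0.244 CPM (0.00617 to 1.36) in AL9-high cells, from 1 UMI. The log2 ratio of the means at 7 DAP was 4.81. The intervals of the 2 groups did not meet in any library.

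**Figure D1:**
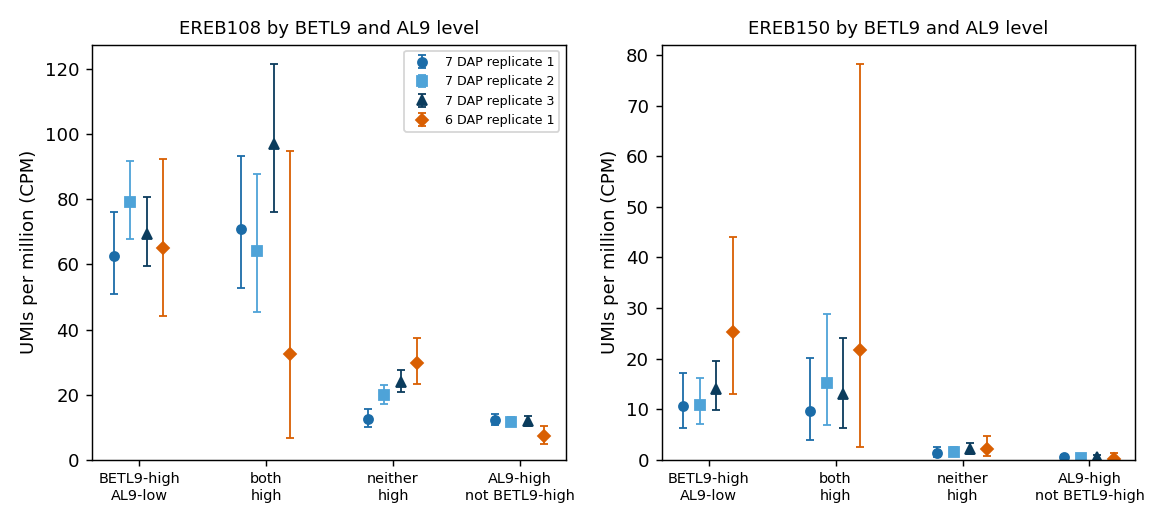
CPM of EREB108 (left) and EREB150 (right) in cells grouped by BETL9 and AL9 level, 1 point per library with its exact 95% Poisson interval. EREB108 lies between 62.5 and 79.1 in BETL9-high cells and between 7.31 and 12.2 in AL9-high cells, and EREB150 between 10.7 and 25.2 and between 0.244 and 0.548.

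The share of cells with a UMI differed between groups before and after depth was made equal. At 7 DAP, 31.5%, 42.7% and 43.6% of BETL9-high cells had an EREB108 UMI at median depths of 7577, 9891 and 11225 UMIs, against 4.14%, 4.95% and 5.28% of AL9-high cells at 4287, 6484 and 6755 UMIs. At 6 DAP the shares were 13.7% of BETL9-high cells and 1.31% of AL9-high cells, at 1998 and 1802 UMIs. After each cell was thinned to 1000 UMIs, the shares at 7 DAP were 8.87%, 5.69% and 5.96% in BETL9-high cells and 0.915%, 0.866% and 0.970% in AL9-high cells. At that common depth the 6 DAP shares were 5.79% in BETL9-high cells, within the range at 7 DAP, and 0.707% in AL9-high cells. For EREB150 the unthinned shares were 6.40%, 9.48% and 13.3% of BETL9-high cells and 0.237%, 0.208% and 0.349% of AL9-high cells at 7 DAP, and 5.79% and 0.0544% at 6 DAP.

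Cells high for both genes, and cells high for neither, separated the members from AL9. In cells high for both BETL9 and AL9, EREB108 stood at 71.0, 64.0 and 96.9 CPM at 7 DAP and 32.5 CPM (6.69 to 94.9) at 6 DAP, and EREB150 at 9.74, 15.2 and 13.1 CPM at 7 DAP and 21.6 CPM (2.62 to 78.2) at 6 DAP. These levels at 7 DAP overlapped those of BETL9-high cells that were low for AL9. In cells high for neither, EREB108 stood at 12.5, 19.8 and 24.0 CPM at 7 DAP and 29.8 CPM at 6 DAP.

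Across all kept cells, EREB108 was lower in the bin highest for AL9 than in the bin lowest for it. At 7 DAP this was not so within BETL-sum-high cells, nor on average within BETL-sum-low cells. In the lowest of 5 equal bins of cells by AL9 level EREB108 stood at 23.1, 29.4 and 31.0 CPM at 7 DAP and 42.4 CPM at 6 DAP, and in the highest bin at 7.61, 7.81 and 6.25 CPM at 7 DAP and 3.73 CPM at 6 DAP. The fall was not steady: at 7 DAP the second bin averaged 31.3 ± 9.31 CPM, against 27.8 ± 4.19 CPM in the lowest (SD, n = 3). Within BETL-sum-low cells the 5 bins averaged 3.00, 5.56, 4.89, 5.40 and 3.64 CPM at 7 DAP. The lowest bin ran from 1.34 to 5.25 CPM and the highest from 3.03 to 3.96 CPM over libraries, from 29 and 58 UMIs in all. The order of these 2 bins thus differed between libraries. Within BETL-sum-high cells, the quartile lowest for AL9 had 45.9, 60.5 and 54.6 CPM and the highest quartile 59.6, 67.7 and 79.8 CPM at 7 DAP. At 6 DAP the order was the opposite, with 97.1 CPM in the lowest quartile and 40.9 CPM in the highest, from 35 and 14 UMIs.

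The wider BETL-sum-high set held most EREB108 transcripts and nearly all EREB150 transcripts. EREB108 stood at 60.6, 69.0 and 74.1 CPM in BETL-sum-high cells at 7 DAP, against 4.11, 4.20 and 5.41 CPM in the remaining, BETL-sum-low cells. At 6 DAP the values were 69.3 and 5.38 CPM. BETL-sum-high cells held 81.5%, 82.8% and 80.4% of the EREB108 UMIs at 7 DAP and 78.1% at 6 DAP, with 22.6% to 23.0% of all UMIs at 7 DAP and 21.7% at 6 DAP. By contrast, the BETL9-high cells held 22.7%, 26.1% and 25.1% of EREB108 UMIs at 7 DAP and 22.6% at 6 DAP. The far more numerous AL9-high cells held 46.0%, 40.6% and 37.2% at 7 DAP and 21.9% at 6 DAP, and cells with 0 BETL9 UMIs, which overlap that group, held 29.7%, 34% and 31.7% at 7 DAP and 51.1% at 6 DAP.

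EREB150 stood at 6.98, 6.37 and 9.52 CPM in BETL-sum-high cells at 7 DAP and 12.3 CPM at 6 DAP. BETL-sum-low cells held 1, 2 and 0 EREB150 UMIs at 7 DAP and 1 UMI at 6 DAP, all below the floor of 3 UMIs. BETL-sum-high cells thus held 97.6%, 96.2% and 100% of EREB150 UMIs at 7 DAP and 95% at 6 DAP. Of the 25 EREB150 UMIs in AL9-high cells at 7 DAP, 2 lay in cells without a UMI of BETL9, BETL10, BETL3 or BAP2. Cells with the other markers checked held few or none of either gene. FL3 is a gene of the starchy endosperm. The FL3 cells had at least 3 FL3 UMIs, and cells that were BETL-sum-high or reached the BETL9 limits were left out. Most UMIs of the members were thus left out beforehand, and low counts in this set follow in part from its rule. There EREB108 had 0, 1 and 3 UMIs at 7 DAP and 2 UMIs at 6 DAP, and EREB150 had 0. In the 45, 34 and 32 cells at 7 DAP and 4 cells at 6 DAP with at least 1% of UMIs from ESR genes, which mark the embryo-surrounding region, both had 0.

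The members differed in how they followed BETL9 across cells. EREB108 was near its level in BETL9-high cells where BETL9 was low but detected. Cells at 100 or more BETL9 UMIs per 10000 were few, 13, 11 and 4 at 7 DAP and 1 at 6 DAP, with 0, 3 and 2 EREB108 UMIs and 0 UMIs. Where BETL9 was above 0 but under 10 per 10000, EREB108 was already at 58.9, 60.8 and 68.8 CPM at 7 DAP and 64.9 CPM at 6 DAP, and between 10 and 100 per 10000 it was at 66.7, 77.6 and 76.4 CPM at 7 DAP and 60.0 CPM at 6 DAP. EREB150 was lower in the first range, at 4.50, 4.27 and 7.10 CPM at 7 DAP and 0 UMIs at 6 DAP, than in the second, at 9.78, 12.3 and 14.0 CPM at 7 DAP and 24.7 CPM at 6 DAP. In the quartile of BETL9-high cells with most BETL9, EREB108 stood at 48.1, 47.1 and 56.8 CPM at 7 DAP and 34.8 CPM at 6 DAP, the lowest of the 4 quartiles in each library, although the intervals overlapped those of at least 1 other quartile. EREB150 had no steady order over these quartiles, with 22.9, 1.96 and 19.9 CPM in the top quartile at 7 DAP from 10, 1 and 13 UMIs.

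BETL-sum-high cells with no BETL9 UMI also held EREB108. At 7 DAP EREB108 stood at 68.8, 73.3 and 76.5 CPM in BETL-sum-high cells with a BETL9 UMI, against 36.3, 56.4 and 63.7 CPM in those without one, and at 6 DAP at 69.9 and 68.3 CPM. EREB150 stood at 8.20, 8.22 and 11.2 CPM in the cells with BETL9 at 7 DAP, against 3.36, 0.981 and 2.17 CPM in the cells without it, and at 14.6 and 8.54 CPM at 6 DAP. In the 6 DAP cells without BETL9, 1 cell held 16 of the 40 EREB108 UMIs and 3 of the 5 EREB150 UMIs. The 6 DAP values of that set therefore rest largely on 1 cell. The cells with BETL9 were deeper, with median depths of 5876, 8677 and 10519 UMIs at 7 DAP, against 2411, 4476 and 4753 UMIs in the cells without it.

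Over the summed level of BETL10, BETL3 and BAP2, both genes were low in the lowest quartile and high in the top quartile, and EREB108 came near its top level sooner. EREB108 went through 29.6, 36.4, 81.0 and 76.0 CPM over the 4 quartiles in 7 DAP replicate 1, through 47.8, 66.5, 74.7 and 80.6 CPM in replicate 2, and through 50.6, 75.0, 87.7 and 77.4 CPM in replicate 3. At 6 DAP it went through 22.5, 93.7, 79.5 and 78.0 CPM. The last 2 quartiles overlapped in each library. EREB150 went through 0, 2.48, 7.30 and 13.0 CPM in 7 DAP replicate 1, through 0.630, 3.83, 9.33 and 10.0 CPM in replicate 2, and through 0.657, 7.55, 11.1 and 15.7 CPM in replicate 3. At 6 DAP it went through 0, 11, 12.0 and 24.4 CPM, from 0, 4, 5 and 10 UMIs. The order of levels was the same in every library, and the intervals of neighbouring quartiles overlapped in most. Median depth was higher in the higher quartiles, at 2392, 3133, 4835 and 7933 UMIs in 7 DAP replicate 1, and its part in these values was not tested.

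**Figure D2:**
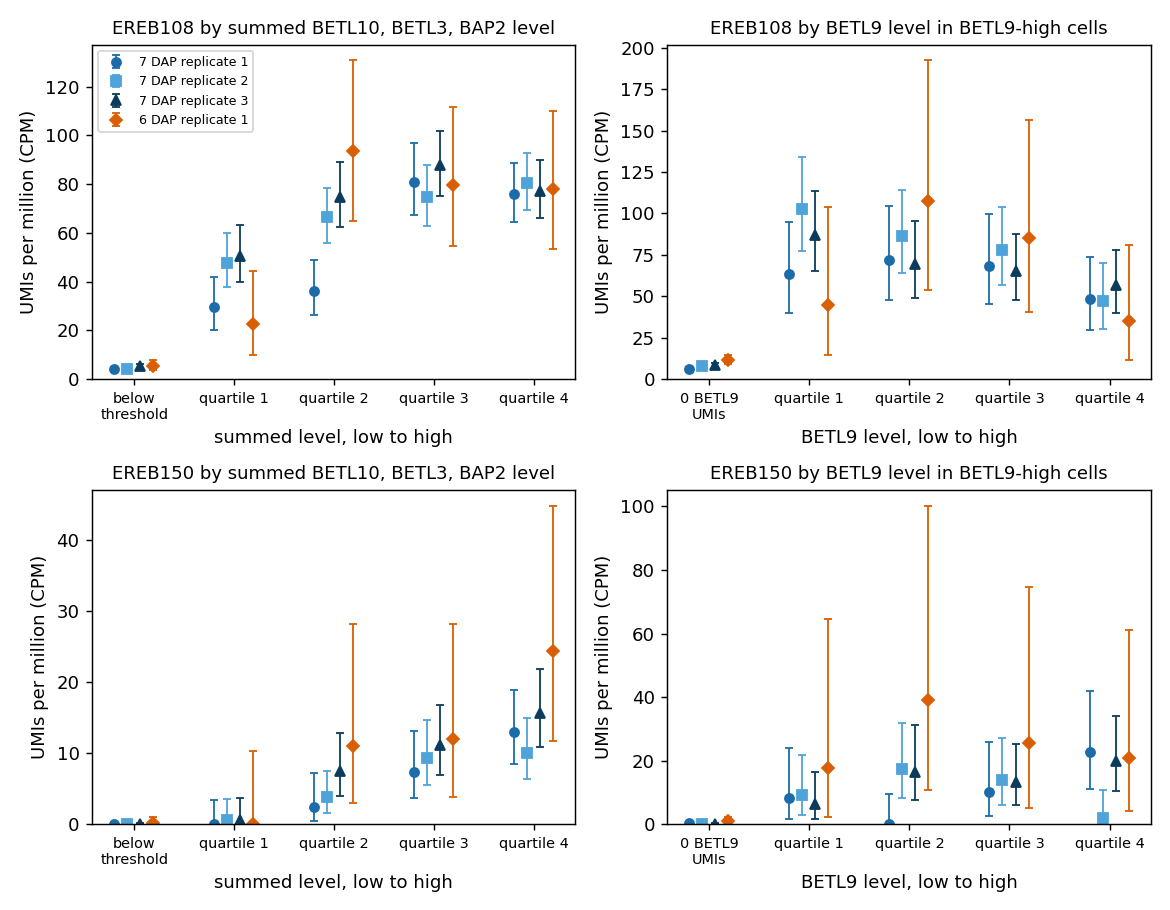
CPM of EREB108 (top) and EREB150 (bottom) over the summed level of BETL10, BETL3 and BAP2 (left) and over BETL9 level in BETL9-high cells (right), 1 point per library with its exact 95% Poisson interval. EREB150 rises to 10.0 to 24.4 in the top quartile of the summed level, while EREB108 is lowest, at 34.8 to 56.8, in the top BETL9 quartile.

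Both members were higher in BETL-sum-high cells in which a known regulator of the transfer layer was detected. MRP1 is a MYB-related factor that activates BETL genes. EREB108 stood at 88.9, 94.5 and 101 CPM at 7 DAP in BETL-sum-high cells with an MRP1 UMI, against 42.6, 45.9 and 44.7 CPM in those without one, and at 129 and 49.3 CPM at 6 DAP. EREB150 stood at 15.3, 10.8 and 16.6 CPM with MRP1 and 1.67, 2.38 and 1.70 CPM without it at 7 DAP, and at 38.8 and 3.46 CPM at 6 DAP. Of the EREB150 UMIs in BETL-sum-high cells at 7 DAP, 35 of 41, 41 of 51 and 65 of 71 lay in cells with MRP1. The values with and without MRP1 did not overlap for either member. How many of all genes also separate in this way was not counted, so nothing is read from it.

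The same order was seen for MYBR29, another MYB-related factor of this layer, and for TCRR1 and TCRR2, which are transfer cell response regulators. EREB108 had 75.8, 79.6 and 82.4 CPM with a MYBR29 UMI and 25.0, 29.5 and 32.4 CPM without one at 7 DAP, and 82.8, 81.8 and 91.3 CPM with TCRR1 and 42.7, 58.2 and 55.2 CPM without it. EREB150 had 11.4, 12.6 and 15.3 CPM with TCRR1 and 3.38, 1.15 and 3.10 CPM without it at 7 DAP. Cells with a regulator's UMI were deeper: the median was 8819, 11426 and 12458 UMIs with MRP1 and 3066, 5520 and 6759 UMIs without it at 7 DAP, and the part of depth in these differences was not tested.

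**Figure D3:**
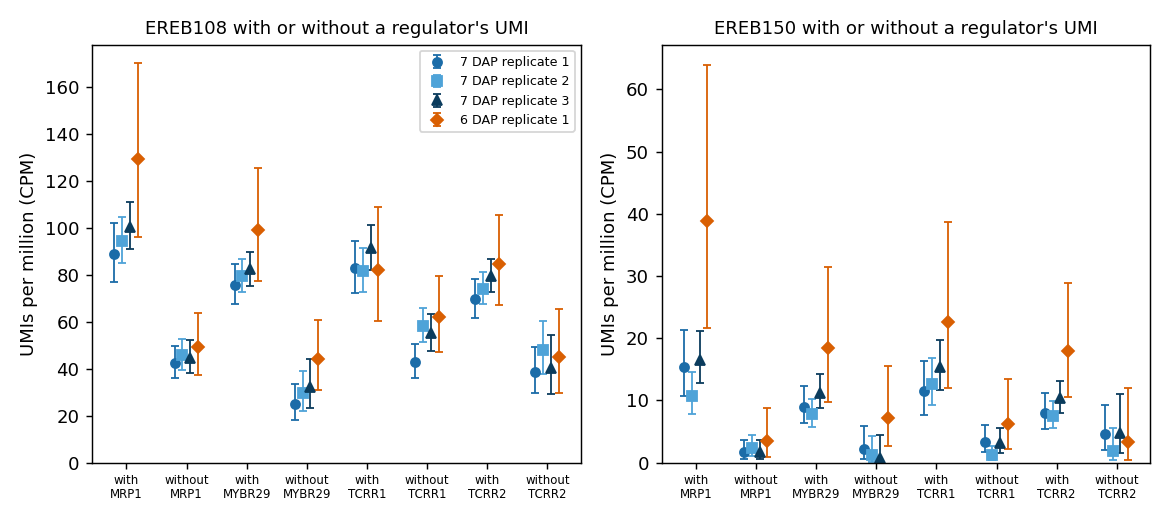
CPM of EREB108 (left) and EREB150 (right) in BETL-sum-high cells with or without a UMI of MRP1, MYBR29, TCRR1 or TCRR2, 1 point per library with its exact 95% Poisson interval. Every library is higher with MRP1, at 88.9 to 129 against 42.6 to 49.3 for EREB108 and 10.8 to 38.8 against 1.67 to 3.46 for EREB150.

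Most EREB150 cells at 7 DAP also held EREB108, while few EREB108 cells held EREB150. Summed over the libraries at 7 DAP, 790 BETL-sum-high cells had EREB108, 131 had EREB150 and 82 had both, which is 10.4% of the EREB108 cells and 62.6% of the EREB150 cells. By library the cells with both were 20 of 34, 21 of 39 and 41 of 58 EREB150 cells, or 58.8%, 53.8% and 70.7%. At 6 DAP they were 4 of 15 EREB150 cells, or 26.7% (7.79% to 55.1%, exact binomial within that library), and 4.94% of 81 EREB108 cells. In BETL9-high cells at 7 DAP, 34 cells had both, which is 13.7% of 249 EREB108 cells and 54.8% of 62 EREB150 cells. No BETL-sum-low cell held both, among 202 EREB108 cells and 3 EREB150 cells at 7 DAP.

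Co-detection was examined at 2 depths. EREB108 was itself frequent in deep cells. With or without EREB150, it was found in 186 of 508, 223 of 451 and 211 of 369 BETL-sum-high cells above their library's median depth at 7 DAP. Cells with 1 EREB150 UMI had median depths of 9746, 12272 and 13615 UMIs at 7 DAP. The overlap was not compared with that of independent detection. Among BETL-sum-high cells above their library's median depth at 7 DAP, 9.68%, 8.97% and 15.6% of cells with EREB108 had EREB150, against 2.80%, 4.39% and 6.96% of cells without EREB108. At 6 DAP these shares were 7.02% and 2.76%, from 4 and 8 cells. Among the shallower cells the order was the same in 7 DAP replicates 1 and 3, with 5.88% and 10.5% of cells with EREB108 against 1.05% and 2.05% of cells without it, and the opposite in replicate 2, with 1.67% against 2.04%, and at 6 DAP, with 0% against 0.929%. These shares rest on 0 to 8 cells each. After thinning to 1000 UMIs, only 1 of 12 EREB150 cells at 7 DAP also held EREB108, so co-detection could not be measured at that depth. EREB150 UMI counts were low throughout, and a cell without an EREB150 UMI cannot be read as a cell without the transcript.

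Of the adjacent gene models, the one between the members gave few UMIs and the next one had another distribution. Zm00001d031500, between them in identifier order, had 5, 5 and 2 UMIs at 7 DAP, all in BETL-sum-high cells, and 0 at 6 DAP. Zm00001d031498, another AP2-EREBP factor (EREB169), had 0 UMIs at 7 DAP and 1 at 6 DAP. Zm00001d031502 was detected more widely and was higher in BETL-sum-low cells, at 12.2, 9.75 and 8.71 CPM in BETL-sum-high cells and 22.0, 16.6 and 14.8 CPM in BETL-sum-low cells at 7 DAP. Whether reads of similar gene copies were assigned to the right copy was not tested.

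Between ages, EREB108 differed little and EREB150 had lower values at 7 DAP, and neither difference met the rule of size used for all genes. That rule asked the 6 DAP value to lie 2-fold or more above, or 2-fold or more below, every library at 7 DAP, since 1 library at 6 DAP allows no test. It also asked for a mean of at least 10 CPM over all libraries. EREB150 was under that minimum in kept cells and in BETL-sum-high cells, so it could not meet the rule there. With a minimum of 1 CPM it did not meet the rule in these sets either. In kept cells EREB108 stood at 17.1, 18.9 and 21.2 CPM at 7 DAP (mean 19.1 ± 2.07, SD, n = 3) and 19.2 CPM (16.2 to 22.8) at 6 DAP, and EREB150 at 1.64, 1.5 and 2.19 CPM (mean 1.78 ± 0.364) at 7 DAP and 2.81 CPM (1.72 to 4.34) at 6 DAP. In BETL9-high cells the means at 7 DAP were 70.4 ± 8.35 CPM for EREB108, against 65.2 CPM at 6 DAP, and 11.9 ± 1.87 CPM for EREB150, against 25.2 CPM from 12 UMIs at 6 DAP, log2 ratios of 0.11 and -1.08. Of the genes that reached a mean of 10 CPM, 0.835% met the rule as lower at 7 DAP in kept cells and 5.86% in BETL9-high cells. As higher at 7 DAP, 1.34% and 2.29% met it. With TMM scaling the balance in BETL9-high cells turned, with 1.22% of genes lower and 6.20% higher at 7 DAP, and EREB150 had a log2 ratio of -0.66. Among the alternatives tried on the rule, EREB150 met it in BETL9-high cells only when 7 DAP replicate 3 was left out, with a log2 ratio of -1.22. In BETL-sum-high cells EREB150 stood at 7.62 ± 1.67 CPM at 7 DAP and 12.3 CPM (7.41 to 19.2) at 6 DAP.

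One cell held 16 of the 137 EREB108 UMIs at 6 DAP, and it also held 3 of the 20 EREB150 UMIs. It had 7787 UMIs in all, among them 48 of the BETL sum and 3 of MRP1 but 0 of BETL9 and 0 of AL9. It thus counts in the 6 DAP values of cells high for neither gene. It also counts in those of BETL-sum-high cells with MRP1 and of BETL-sum-high cells without BETL9. Without the cell with most EREB108 UMIs in each library, the log2 ratio of 7 DAP to 6 DAP for EREB108 in kept cells was 0.14 in place of -0.01.

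EREB108 UMIs were also counted in cells without a BETL9, BETL10, BETL3 or BAP2 UMI. Few of these cells had any, and most that did held 1. They held 49, 53 and 88 EREB108 UMIs at 7 DAP (2.99, 2.31 and 4.10 CPM) and 24 UMIs at 6 DAP (4.75 CPM), against 1, 2 and 0 EREB150 UMIs at 7 DAP and 1 at 6 DAP. Of all cells without these BETL UMIs 1.08%, 1.00% and 1.49% at 7 DAP had an EREB108 UMI, at median depths of 3857, 5244 and 5124 UMIs, against 0% (at most 0.777%), 0.209% and 0.664% of the cells with at least 3 FL3 UMIs, at 3593, 5299 and 4624 UMIs. At 6 DAP the shares were 0.920% and 0.922%, at 1752 and 2596 UMIs. The exact binomial 95% intervals of these shares overlapped in every library, but overlap of intervals is not a test. At 7 DAP the share was lower in the FL3 cells in each library, and EREB108 stood there at 0, 0.336 and 1.20 CPM. At 6 DAP it stood there at 2.69 CPM, and the shares were alike. The FL3 cells leave out BETL-sum-high cells by rule, as stated above. The 2 sets can share cells, so the FL3 cells are not a separate background. The part of free RNA in the EREB108 UMIs of the cells without BETL UMIs was not tested. In 2, 4 and 11 of these cells at 7 DAP, and in 1 at 6 DAP, there were 3 or more EREB108 UMIs, up to 9 in a cell, and 16 of the 17 at 7 DAP were AL9-high. These cells were deep, with medians of 19814, 28267 and 13256 UMIs at 7 DAP. They held no MRP1, TCRR1 or EREB150 UMI, but 2, 0 and 7 MYBR29 UMIs and 0, 1 and 0 TCRR2 UMIs at 7 DAP, and 1 MYBR29 UMI at 6 DAP.

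The 5 genes most like EREB108 over cell groups included MRP1, although not when log2(CPM + 10) was used. Likeness was the Pearson r of log2(CPM + 1) over 28 sums of cells (7 groups in each of 4 libraries) among 18160 genes. It is given as a description, since the sums share libraries, depth and the division by BETL9. The 5 genes nearest EREB108 were Zm00001d043323 (r = 0.957), Zm00001d003446 (0.949), Zm00001d043357 (0.948), Zm00001d024659 (0.940) and MRP1 (0.939), of which the first 4 have no name in the feature table. Of the 148 profiled factors that had enough UMIs to be ranked, those nearest EREB108 were MRP1 and then MYBR81 (0.921), MYBR29 (0.915), MYBR33 (0.902) and the homeobox factor HB118 (0.888).

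The 5 genes nearest EREB150, none of them among the 5 nearest EREB108, were Zm00001d026132 (r = 0.933), MYBR19 (0.890), miniature seed1 (0.889), aldehyde dehydrogenase5 (0.881) and Zm00001d003796 (0.879). Miniature seed1 encodes the cell wall invertase of transfer cells, which splits incoming sucrose. Among profiled factors MYBR19 came first, followed by HB118 (0.864), MYBR29 (0.845), MYBR81 (0.839) and MRP1 (0.820). The r between EREB108 and EREB150 was 0.720. AL9 had an r of -0.48 with EREB108 and -0.49 with EREB150.

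Among the other ERF factors with a binding profile, 1 had a difference between BETL9-high and AL9-high cells of the size of EREB150's. UMIs were summed over each group in each library at 7 DAP and tested with edgeR's quasi-likelihood test, with the library as a block and Benjamini-Hochberg adjustment over 17761 genes. Of all genes tested, 24.4% were higher and 25.6% lower in BETL9-high cells. Of 24 other ERF factors 21 were tested, and 3 were higher (14.3%) and 12 lower (57.1%), with a median log2 fold change of -0.81, against -0.05 over all genes. The study chose the factors it profiled because their expression differed between cell clusters. A high share of called factors can follow from that choice, so nothing is read from these shares. The fitted log2 fold changes of EREB108 and EREB150 were 3.09 and 5.35, given with no p.

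EREB190 was at 10.7, 6.82 and 8.03 CPM in BETL9-high cells and 0.426, 0.343 and 0.186 CPM in AL9-high cells, a log2 fold change of 5.22 (adjusted p = 5.2e-13, edgeR). The other higher factors differed little. EREB200 had a log2 fold change of 0.54 (adjusted p = 2.7e-10, edgeR) and EREB79 one of 0.18 (adjusted p = 0.0391, edgeR), and when libraries were scaled by their totals instead of by TMM only EREB190 was called higher and EREB79 turned to -0.34. With any 1 library left out, 2 factors were called higher. That scaling moved the median of all genes to -0.57 and the calls to 1960 higher and 9306 lower, in place of 4334 and 4538.

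EREB111 showed the opposite pattern, with 5.68, 5.46 and 2.41 CPM in BETL9-high cells and 46.3, 44.7 and 45.6 CPM in AL9-high cells, a log2 fold change of -2.88 (adjusted p = 6.1e-14, edgeR). EREB147 was lower as well, with 6.94, 10.9 and 8.03 CPM against 55.3, 50.7 and 61.9 CPM, a log2 fold change of -2.16. EREB18, EREB195 and DBF1 were also lower by edgeR, with log2 fold changes of -2.51, -2.46 and -2.01 from few UMIs. Of all 189 other features named as AP2-EREBP factors, a set chosen after values were seen, 71 were tested, and 17 were higher (23.9%) and 27 lower (38.0%), against 24.4% and 25.6% of all genes.

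**Figure D4:**
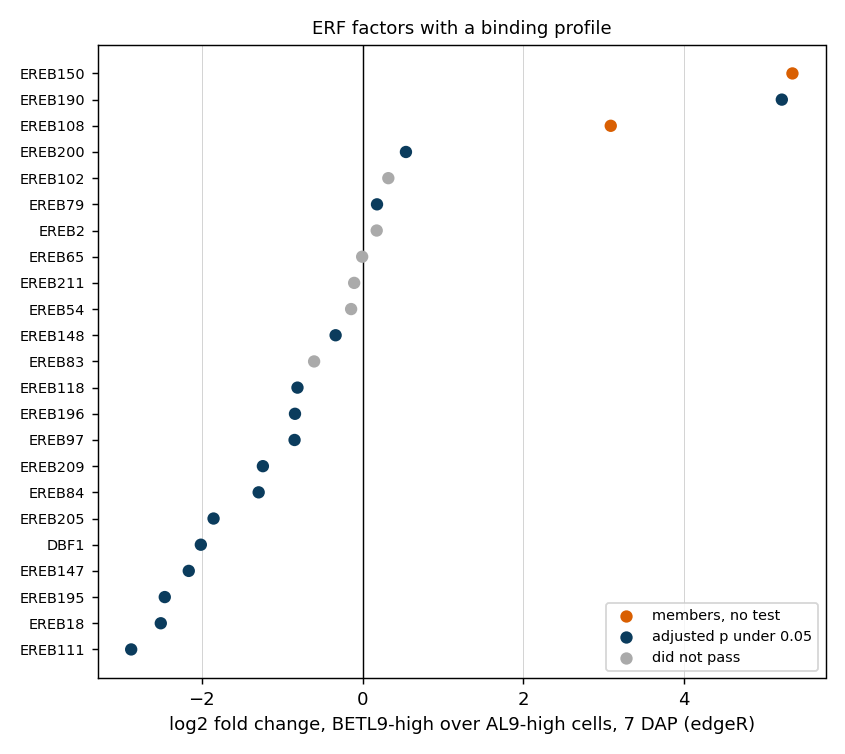
Log2 fold changes (x axis, edgeR, BETL9-high over AL9-high cells at 7 DAP) of the 21 tested ERF factors with a binding profile and of EREB108 and EREB150 (orange, no test), 1 row per gene. EREB150 (5.35), EREB190 (5.22) and EREB108 (3.09) lie apart at the right, EREB79 (0.18) changes sign under scaling by totals, and 12 factors are lower.

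Some genes of ethylene synthesis were called in each direction, at a share near that of all genes for those higher. The hormone is made from S-adenosylmethionine by ACC synthase and then ACC oxidase. Of 32 listed biosynthesis genes 16 were tested, and 4 were higher (25%) and 8 lower (50%) in BETL9-high cells, against 24.4% and 25.6% of all genes. The ACC synthase ACS2 was at 8.21, 10.0 and 7.63 CPM in BETL9-high cells and 60.0, 61.9 and 58.4 CPM in AL9-high cells, a log2 fold change of -2.28 (adjusted p = 1.6e-14, edgeR). ACS7 (-1.39), the S-adenosylmethionine synthetase SAMS1 (-1.47), Zm00001d040697 (-3.05) and Zm00001d018517 (-1.16) were lower too.

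The genes called higher were ACC oxidase35 (Zm00001d018211), with 3.16, 4.55 and 2.81 CPM against 1.77, 1.72 and 1.54 CPM and a log2 fold change of 1.59 (adjusted p = 0.0013, edgeR), Zm00001d048562 (1.58), ACC oxidase20 (Zm00001d052136, 0.97) and Zm00001d011208 (0.61). The fitted folds include TMM scaling and the CPM do not, so the 2 differ. ACC oxidase20 stood at 6.94, 5.91 and 2.01 CPM against 3.65, 3.26 and 3.35 CPM, the opposite order in replicate 3. Zm00001d011208 differed little in CPM, with 10.7, 9.09 and 9.63 CPM against 9.93, 8.54 and 9.17 CPM. Scaling by library totals gave 2 biosynthesis genes called higher, as did leaving out 7 DAP replicate 1 or replicate 2. Of 10 genes listed as responding to ethylene 4 were tested, and 0 were higher and 1 (25%) lower, a share near the 25.6% of all genes. This was EIL3, a factor of ethylene signalling, with a log2 fold change of -1.64 (adjusted p = 0.0118, edgeR), a call that was lost without 7 DAP replicate 3 and with DESeq2. EIN2, the central transducer of the ethylene signal, had a log2 fold change of 0.06 and did not pass the test (adjusted p = 0.908, edgeR).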

How the data were processed

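The authors deposited raw UMI counts for each barcode of droplet 3′ libraries, and the matrix header names Cell Ranger 4.0.0. Cell Ranger and Seurat are named in the submitters' processing notes. Gene models are Zm00001d identifiers, and the build and annotation version were not used for coordinates. Cells were kept with 500 to 7500 genes, at least 1000 UMIs and a ratio of log genes to log UMIs of at least 0.8, a reading of the study's complexity filter. Of the cells in all libraries 17212 were kept. Doublets were not removed; an alternative left out the 5% of cells with most UMIs in each library. AL9 and the summed BETL markers were thresholded by Otsu's method in each library. The members and lists were chosen with earlier results of these data known, and support nothing beyond the values given.

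Sums per group and library at 7 DAP were tested with edgeR 4.0.16 in R 4.3.3 (TMM, filterByExpr, call at an adjusted p under 0.05). Both sums of a library come from the same cells' preparation, so the library was a block, although same-library sums deviated together only weakly (correlations 0.0730, 0.0229 and 0.0564). Tested on simulated data with the group sizes of this comparison (17515 genes), the fit recovered 25.0% of 2-fold and 88.5% of 4-fold changes, of 96 tested genes each. The simulation set the same spread for every gene and no library effect, so these rates need not hold for the real sums. Alternatives were other gates and thresholds, no cell filter, thinning to 1000 UMIs, no filter on genes, DESeq2 1.42.0, no block, scaling by totals, other minima and pseudocounts, and leaving out each library at 7 DAP. Named genes were the members, layer markers and regulators, adjacent identifiers, the 5 nearest genes and the 5 nearest profiled factors for each member, and the called list genes with the 5 largest folds in each direction. The AP2-EREBP set, the cells without BETL UMIs and their genes were looked at after values were seen. Gene symbols come from the feature table and the study.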

Additional observations from a re-analysis of the deposited data

Results flagged for a closer look

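EREB108 UMIs were also present in barcodes that the cell filter removed, which enter no comparison above. There were 12, 18 and 5 such UMIs in the libraries at 7 DAP and 9 at 6 DAP, each above the limit of 3 UMIs that a count of 0 allows. The removed barcodes numbered 1020, 1047 and 889 at 7 DAP and 1486 at 6 DAP, and EREB108 stood there at 10.2, 13.1 and 3.80 CPM and at 7.96 CPM. EREB150 had 1, 2 and 2 UMIs there at 7 DAP and 0 at 6 DAP.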

How the results depend on the processing

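Each alternative changed 1 choice. Of the summary values 188 stayed within their limits and 58 moved, and of the named list genes' folds 188 kept their call, 39 lost it and 6 changed sign. The gate of 100 BETL9 UMIs per 10000, which keeps at most 13 cells in a library, moved most. There the EREB108 log2 ratio of BETL9-high to AL9-high cells was 0.75, BETL9-high cells held 0.247% of EREB108 and 1.59% of EREB150 UMIs, and 0% of EREB150 cells held EREB108. Calls over all genes were 169 higher and 478 lower. The ERF factors and AP2-EREBP features had 0 calls in each direction, ethylene biosynthesis 0 higher and 3 lower, and response to ethylene 0 lower. EREB200 (-1.04), EREB79 (-0.11), Zm00001d052136 (-8.16), Zm00001d011208 (-0.55) and Zm00001d018517 (0.13) changed sign, and 6 DAP gave no member value. Why was not tested beyond the fewer cells.

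With a gate of 1 BETL9 UMI the log2 ratios were 3.14 (EREB108) and 5.91 (EREB150), the shares of UMIs 41.7% and 65.5%, and the EREB150 log2 ratio of 7 DAP to 6 DAP -0.55. With the gate on BETL10, BETL3 and BAP2 they were 3.78 and 7.86, 45.5% and 67.8%, and the age ratios -0.24 (EREB108) and -0.68 (EREB150), with 5 ERF factors higher. With AL9 split at its median, the shares were 29.4% and 54.3%. Against cells with 0 BETL9 UMIs the log2 ratios were 3.22 and 6.03, with 2 biosynthesis genes higher. Thinned cells gave 2.91 and 5.97, with 69.4% of EREB150 UMIs and 0% co-detection. Without the cell with most EREB108 UMIs, an alternative added after values were seen, its age ratio in kept cells was 0.14. TMM scaling gave age ratios in BETL9-high cells of 0.53 for EREB108 and -0.66 for EREB150.

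By the size rule, genes higher at 7 DAP in kept cells numbered 132, and 528 with a minimum of 1 CPM, and genes lower 82, 293 with that minimum and 40 with TMM. In BETL9-high cells they were 178 higher, 1871 and 481, and 456 lower, 1716 and 95. Leaving out a library gave 87 to 219 lower in kept cells and 601 to 781 in BETL9-high cells, the highest counts without 7 DAP replicate 1.

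DESeq2 gave 3190 genes higher and 2885 lower, with 2 biosynthesis genes higher and 0 response genes lower. Scaling by library totals, also added later, gave 1960 and 9306, with 1 ERF factor higher, 2 biosynthesis genes higher, 2 response genes lower, 45 AP2-EREBP features lower, and EREB79 at -0.34. No filter gave 3859 and 5340. No replicate block gave 4239 and 4431. Without 1 library, 2 to 3 biosynthesis genes were higher and 0 to 1 response genes lower, 2 ERF factors were higher with any library left out, and the fold of EREB195 ran from -7.74 to -1.80. The cause of these shifts was not tested. With a minimum of 1000 UMIs, 5 and 2 of the nearest 5 genes of EREB108 and EREB150 were shared. With log2(CPM + 10), 4 and 4 were shared, and Zm00001d044231 took the place of MRP1 for EREB108. EREB150, with 166 UMIs at 7 DAP and 20 at 6 DAP, limits every comparison of that gene.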

Other observations

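The 16 AL9-high cells at 7 DAP with 3 or more EREB108 UMIs and no UMI of BETL9, BETL10, BETL3 or BAP2 were compared with AL9-high cells without EREB108 and BETL UMIs, a set chosen after values were seen and described with no test. Each library at 7 DAP was summed on its own. A gene counted as higher with at least 30 UMIs in the EREB108 cells and its lowest library at least 2-fold above the highest of the others, and as lower with a mean of at least 50 CPM in the others and its highest library at least 2-fold below their lowest. By these rules 17 genes were higher, EREB108 itself among them, and 165 lower. The minima of the 2 rules differ and the genes able to meet each were not counted, so nothing is read from these counts. The EREB108 cells numbered 2, 3 and 11 by library. The comparison cells were shallower than the EREB108 cells described above, with medians of 4321.5, 6349 and 6360.5 UMIs. The part of depth and of the few cells was not tested. Zm00001d030707 stood at 339.9 CPM (326.3 to 353.3) in the EREB108 cells and 13.2 CPM in the others, and Zm00001d030720 at 704.1 and 49.7 CPM. Beta expansin7, a member of a family of wall-loosening proteins, stood at 1190.1 CPM (706.6 to 1700.7) and 115.9 CPM, and Aux/IAA-transcription factor 15, of a family of auxin response repressors, at 345.8 and 50.2 CPM. FL3 was among the lower genes, at 5.41 CPM from 2 UMIs and 70.7 CPM (44.3 to 115.7) in the others. Also lower were sucrose synthase1 (12.3 and 228.1 CPM) and maternally expressed gene14 (1.98 and 83.6 CPM), from 4 UMIs and 1 UMI. Defensin-like protein1 was lower as well, at 5.41 CPM from 2 UMIs and 91.3 CPM. The study describes this defensin gene as rising with age in aleurone clusters. These values rest on few UMIs, so no cell type is read from them.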
